A study of Homo sapiens with 6 samples.

Results

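The 10 genes described here carry iron through the cell and its surroundings. They were the rows of the deposited table named TF, TFRC, CP, FTH1, FTL, STEAP1, STEAP2, STEAP3, SLC40A1 and SLC11A2, and all 10 were found among 24846 genes. They were chosen by name with the fold changes of ACC over control in these same libraries known, so their differences between the groups are given as a description and without a test. RNA was sequenced from A549, an established human lung adenocarcinoma cell line of wild-type genotype. In the ACC group, 3 cultures were kept for 8 passages in calcium-depleted DMEM/F12 to which 2 mM calcium had been added as amorphous calcium carbonate (ACC), a non-crystalline form of calcium carbonate with buffering capacity. In the control group, 3 cultures were kept for 8 passages in complete DMEM/F12, whose calcium is calcium chloride. Both media held 10% fetal bovine serum and antibiotics. ACC replaced the calcium salt and changed its concentration. Per the authors, ACC also raised the pH of acidified medium, and the suspensions held sodium tripolyphosphate as a stabilizer. These changes cannot be told apart. All cultures are of 1 cell line, and it is not clear whether the 3 of a group were kept apart through every passage, so the p-values given for other genes measure only the spread between these samples, which may be technical.

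Iron is taken up mostly as ferric iron bound to transferrin (TF), which enters the cell with the transferrin receptor (TFRC). In the endosome, a ferrireductase such as STEAP3 reduces the iron, and the divalent metal transporter SLC11A2 (DMT1) moves it into the cytosol. Iron that is not used is stored in ferritin, a cage of heavy (FTH1) and light (FTL) chains, or leaves through ferroportin (SLC40A1), the known iron exporter of mammalian cells. Ceruloplasmin (CP), a copper-containing ferroxidase, oxidizes the exported iron so that transferrin can bind it. STEAP2 is a metalloreductase of the same family as STEAP3, whereas STEAP1 lacks the domain that binds NADPH. When iron is low, the iron regulatory proteins, encoded by ACO1 and IREB2, bind a stem-loop called the iron-responsive element (IRE). Binding in a 5′ UTR blocks translation, and binding in a 3′ UTR protects the mRNA, so that ferritin and the transferrin receptor are set in opposite directions.

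The core of this stem-loop was searched for in the annotated UTRs, because it is the sequence that ties ferritin, ferroportin and the transferrin receptor to the iron level. The search required a C, an arm of 5 bases, the loop CAGTGN and a second arm of 5 bases that pairs with the first at all 5 positions, G-U pairs included. The cores found in the members are shown 5′ to 3′ as DNA letters, with the loop of 6 bases in capitals.
FTH1 5′ UTR: cttcaaCAGTGCttgga
FTL 5′ UTR: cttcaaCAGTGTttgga
SLC40A1 5′ UTR: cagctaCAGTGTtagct
TFRC 3′ UTR, first: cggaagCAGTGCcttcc
TFRC 3′ UTR, next: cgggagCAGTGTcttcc
TFRC 3′ UTR, next: cggagaCAGTGAtctcc
TFRC 3′ UTR, last: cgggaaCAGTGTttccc
TF 3′ UTR: cattttCAGTGAaagat
On GRCh38, the FTH1 core lies at chr11:61967580-61967596 on the minus strand and the FTL core at chr19:48965341-48965357 on the plus strand. The SLC40A1 core lies at chr2:189580667-189580683 on the minus strand. The cores of TFRC lie between 196050469 and 196051001 on chromosome 3, minus strand, and the TF core at chr3:133792679-133792695 on the plus strand. The heavy and light ferritin chains share the same arms and differ in the last base of the loop. Of the 10 members, 5 held at least 1 core, against 0.936% of 19332 protein-coding genes with an annotated UTR. Ferritin, ferroportin and the transferrin receptor are known to carry this element. The contrast therefore follows from the choice of genes and pattern, and nothing is read from it. The match in TF lies in the long 3′ UTR of a single annotated transcript. The FTL and SLC40A1 cores were also found in 1 annotated transcript each, the FTH1 core in 7 and the TFRC cores in 10. A match is a description of letters, not of protein binding. SLC11A2, which is known to have an iron-responsive element in one of its transcripts, had no match to this strict pattern.

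Between 21771645 and 24805486 reads per library fell in genes, and no library stood apart in depth. Mitochondrial genes took 4.39% to 5.70% of the reads with ACC and 4.04% to 4.29% in the controls. The deposited values are counts per gene divided by a size factor for each library, and are called normalized counts here. Epithelial markers were abundant in both groups, with KRT7, KRT8, KRT18, KRT19, EPCAM and CDH1 together at 165587 to 172026 normalized counts with ACC and 216434 to 221583 in the controls. The keratins KRT7, KRT8 and KRT18, which carry this sum, were lower with ACC, while KRT19, EPCAM and CDH1 were higher, each at an adjusted p of 0.05 or less by limma, and CDH1 was also called higher (3182 normalized counts on average against 1485). Markers of macrophages and leukocytes summed to at most 6.74 normalized counts in any library, with AIF1 and CD3E at 0 throughout. Of the erythroid markers, HBA1, HBA2 and SLC4A1 had at most 1.02 normalized counts in any library, and EPOR, the erythropoietin receptor, had 249.6 to 294 with ACC and 236 to 254.5 in the controls. In bulk RNA, fewer cells of a type and less RNA per cell cannot be told apart.

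Of the 10 members, 5 (TF, CP, STEAP1, STEAP2 and SLC40A1) were more than 2-fold higher with ACC, and the ferritin genes FTL and FTH1 were higher by less than 2-fold. The other members, TFRC, STEAP3 and SLC11A2, had overlapping groups and means that lay close together (TFRC 1.05-fold, STEAP3 0.985-fold and SLC11A2 0.998-fold). The libraries of the groups did not overlap for 7 of the members, where 51.4% of all 19318 genes tested had groups that do not overlap. A gene was called where the adjusted p was 0.05 or less, the groups differed at least 2-fold and some library held 30 reads or more. These thresholds were passed by 5.01% of the genes tested, 2.77% higher and 2.24% lower, by limma. The 5 members above also lay past these thresholds, but since they were chosen with this contrast known, nothing is read from that count. All 10 passed the filter on low values, a sum of at least 10 normalized counts.

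**Figure D1:**
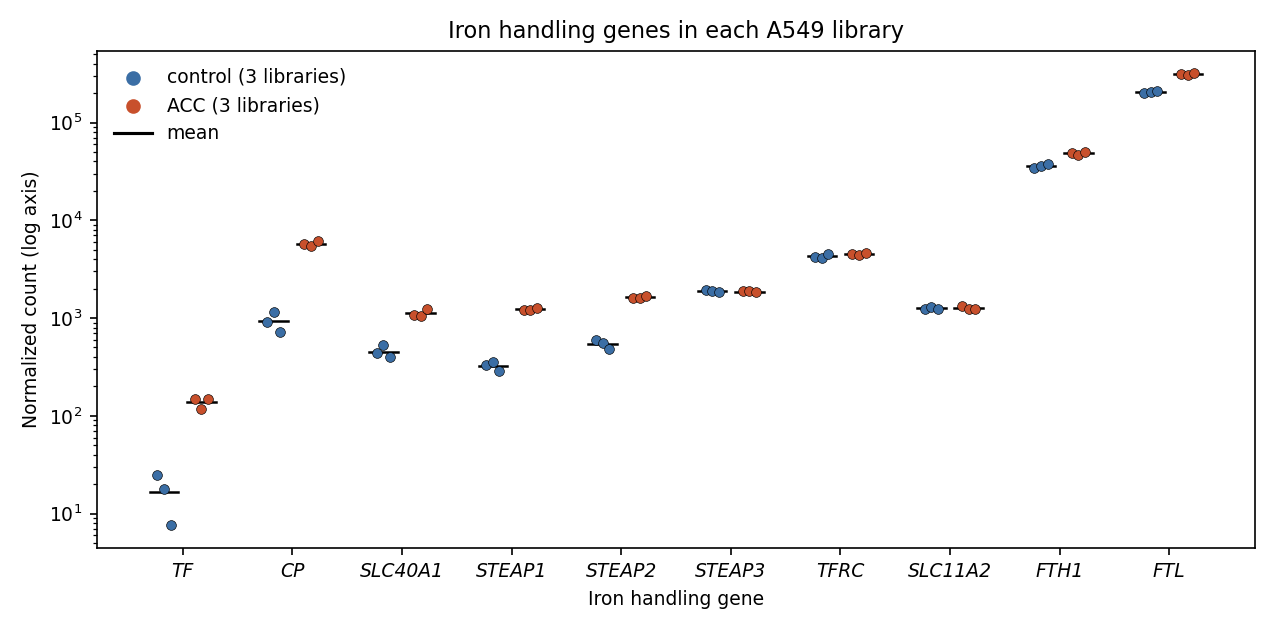
Normalized counts (log axis) of the 10 iron handling genes in the 3 control and the 3 ACC libraries, 1 point per library, with a line at the group mean. The groups lie apart for TF, CP, SLC40A1, STEAP1, STEAP2, FTH1 and FTL, and overlap for STEAP3, TFRC and SLC11A2.

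The iron carrier of plasma, TF, is on chromosome 3 from 133746040 to 133796641 (GRCh38, GENCODE 44 for this and the other genes). TF had 148, 118 and 150.4 normalized counts in the ACC libraries and 25.1, 17.8 and 7.60 in the controls. Every ACC library was above every control, and the lowest ACC value was 4.69 times the highest control. The mean was 139 ± 18.4 (SD, n = 3) with ACC and 16.8 ± 8.77 (SD, n = 3) in the controls, and the log2 fold change was 3.10 (standard error 0.285). TF was the least abundant member, with 8 to 26 reads in a control library and 122 to 159 in an ACC library. Counting error is therefore large in the controls. The control values varied by 52.2% (coefficient of variation), and the part of counting error in this spread was not tested. The log2 fold change ranged from 2.65 to 3.45 when 1 library was left out. SRPRB, a gene on the same strand that shares 122 exon bases with TF, had 831 ± 2.98 normalized counts in the controls and 1097 ± 25.5 (SD, n = 3 each) with ACC, and limma gave 0.40 on the log2 scale with an adjusted p of 1.16e-06. Its part in the TF value was not tested.

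Ceruloplasmin (CP, chromosome 3, 149162410 to 149221829, minus strand) had 5707, 5396 and 6112 normalized counts with ACC and 912, 1147 and 716 in the controls. The groups lay far apart, and the controls varied more among themselves (23.3%, coefficient of variation) than the ACC cultures (6.26%). The mean was 5738 ± 359 with ACC and 925 ± 216 in the controls (SD, n = 3 each), 6.20-fold higher, with a log2 fold change of 2.66 (standard error 0.104). HPS3, a gene of lysosome-related organelle biogenesis on the opposite strand, shares 1420 exon bases with CP. HPS3 had 1604 ± 9.51 normalized counts with ACC and 1559 ± 41.1 in the controls (SD, n = 3 each), and limma gave 0.04 on the log2 scale with an adjusted p of 0.469. The strand setting used in counting is not known here, and reads of the shared bases could therefore not be assigned to CP or HPS3.

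TF and CP are secreted mainly by the liver, and markers of hepatocytes were measured beside them. Of 8 such markers, 6 were in the table, and together they summed to 154 to 178 normalized counts with ACC and 54.1 to 80.02 in the controls. By limma, 4 of the 6 were higher with ACC at the adjusted p of 0.05, beside 21.3% of all genes tested. Of these 4, 1 was called higher, SERPINA1, beside 2.77% of all genes tested. SERPINA1, a protease inhibitor, made up most of the sum with ACC, at 102 normalized counts on average, and had 24.4 in the controls. HPD, an enzyme of tyrosine breakdown, was the largest marker in the controls, with 31.8 normalized counts on average there and 37.5 with ACC (limma adjusted p of 0.380). AHSG, a plasma glycoprotein, rose from 3.12 to 19.5 (limma adjusted p of 0.000176). The defining marker ALB, serum albumin, rose from 0.637 to 3.93 (limma adjusted p of 0.0434) and TTR, transthyretin, from 0.617 to 4.82 (limma adjusted p of 0.0107), both at a few reads per library. APOA1, an apolipoprotein, had 0 to 4.82 in the controls and 0 to 2.89 with ACC (limma adjusted p of 0.435). Their part in the TF and CP values was not tested.

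Ferroportin (SLC40A1, chromosome 2, 189560590 to 189583758, minus strand) had 1064, 1038 and 1239 normalized counts with ACC and 440.4, 527 and 397 in the controls. All ACC libraries were above all controls. The mean was 1114 ± 109 with ACC and 455 ± 66.3 in the controls (SD, n = 3 each), 2.45-fold higher, with a log2 fold change of 1.30 (standard error 0.0850). The ferroxidase and the exporter did not keep the same proportion. There were 5.16 ± 0.217 CP counts for each SLC40A1 count with ACC and 2.02 ± 0.191 in the controls (SD, n = 3 each), and the ratios did not overlap. For each CP count there were 0.0260, 0.0218 and 0.0246 TF counts with ACC and 0.0275, 0.0155 and 0.0106 in the controls, and these ratios overlapped.

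The STEAP genes differed from one another. STEAP1 and STEAP2 are neighbours on the plus strand of chromosome 7. STEAP1 runs from 90154456 to 90164829 and STEAP2 from 90167590 to 90238137, with 2760 bases between them. The RefSeq promoter windows of STEAP2, searched below, lie inside this span (90211490 to 90211789 and 90213570 to 90213869). The distance therefore depends on the annotated start. STEAP3 lies on chromosome 2 from 119223831 to 119265652.
STEAP1 had 1196, 1215 and 1274 normalized counts with ACC and 331, 354 and 289.6 in the controls. STEAP2 had 1617, 1610.4 and 1683 with ACC and 598, 555 and 483 in the controls. Neither gene had overlapping groups, and both were higher with ACC. The log2 fold change was 1.92 (standard error 0.0671) for STEAP1 and 1.59 (standard error 0.0636) for STEAP2, or 3.78-fold and 3.00-fold in the means. There were 0.740, 0.754 and 0.757 STEAP1 counts for each STEAP2 count with ACC and 0.552, 0.638 and 0.599 in the controls, and every ACC ratio was above every control ratio.
STEAP3, the reductase of the transferrin cycle, had 1874, 1875 and 1829 normalized counts with ACC and 1932, 1875 and 1856 in the controls. These groups overlapped, and the log2 fold change was -0.02 (standard error 0.0398). STEAP4, the remaining metalloreductase of the family, was near the limit of detection, with 0.96 to 2.80 normalized counts with ACC and 0 to 4.82 in the controls. STEAP1B, a gene related to STEAP1 in sequence that could share reads with it, had at most 2.05 normalized counts in any library.

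**Figure D2:**
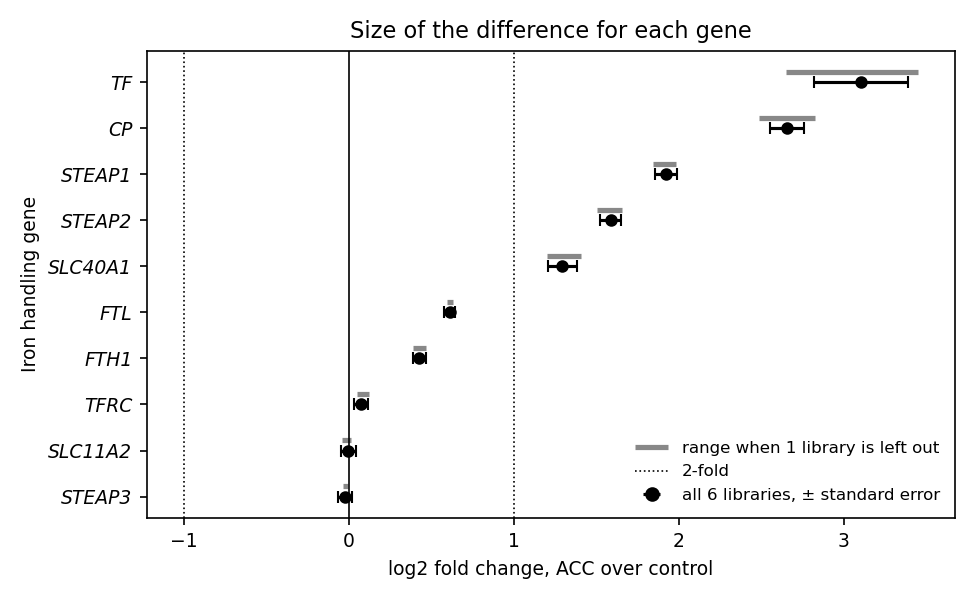
Log2 fold change (ACC over control) of each gene, as points with the standard error from the fit over all genes, and grey bars for the range when 1 of the 6 libraries is left out. TF has the widest range, from 2.65 to 3.45, and TFRC, SLC11A2 and STEAP3 lie close to 0.

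The groups overlapped for the genes of iron uptake. The transferrin receptor (TFRC, chromosome 3, 196012511 to 196082153, minus strand) had 4551, 4399 and 4624 normalized counts with ACC and 4169, 4149 and 4568 in the controls. The highest control lay between the ACC libraries, and the log2 fold change was 0.08 (standard error 0.0411). SLC11A2 (chromosome 12, 50979401 to 51028566, minus strand) had 1315, 1224 and 1223 normalized counts with ACC and 1242, 1283 and 1244 in the controls, a log2 fold change of -0.0033 (standard error 0.0459), and these groups overlapped. With STEAP3, these are the genes that take transferrin iron from the surface to the cytosol, and the groups overlapped for each of them.
The balance between exporter and receptor differed between the groups. For each TFRC count there were 0.234, 0.236 and 0.268 SLC40A1 counts with ACC and 0.106, 0.127 and 0.0869 in the controls. These ratios are taken within a library and do not depend on the scaling between libraries. The sequence cores shown above lie in both genes, in the 5′ UTR of SLC40A1 and the 3′ UTR of TFRC. Their part in these ratios was not tested.

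The ferritin genes were the most abundant members by far. FTL (chromosome 19, 48965309 to 48966879) had 314092, 303855 and 318498 normalized counts with ACC and 199150.2, 205436 and 208309 in the controls. FTH1 (chromosome 11, 61959718 to 61967634, minus strand) had 48857, 46999.6 and 49394 with ACC and 34177, 35922 and 37989.5 in the controls. Every ACC library was above every control for either chain. The log2 fold change was 0.61 for FTL (standard error 0.0356) and 0.43 for FTH1 (standard error 0.0385), or 1.53-fold and 1.34-fold in the means, below the 2-fold threshold. Together the 2 genes took 1.58% to 1.65% of all reads in genes with ACC and 1.06% to 1.11% in the controls.
The proportion of light to heavy chain also differed between the groups. For each FTH1 count there were 6.43, 6.47 and 6.45 FTL counts with ACC and 5.83, 5.72 and 5.48 in the controls. The ratio varied little among the ACC libraries (6.45 ± 0.0181, SD, n = 3) and more among the controls (5.68 ± 0.176, SD, n = 3), and the groups did not overlap.

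**Figure D3:**
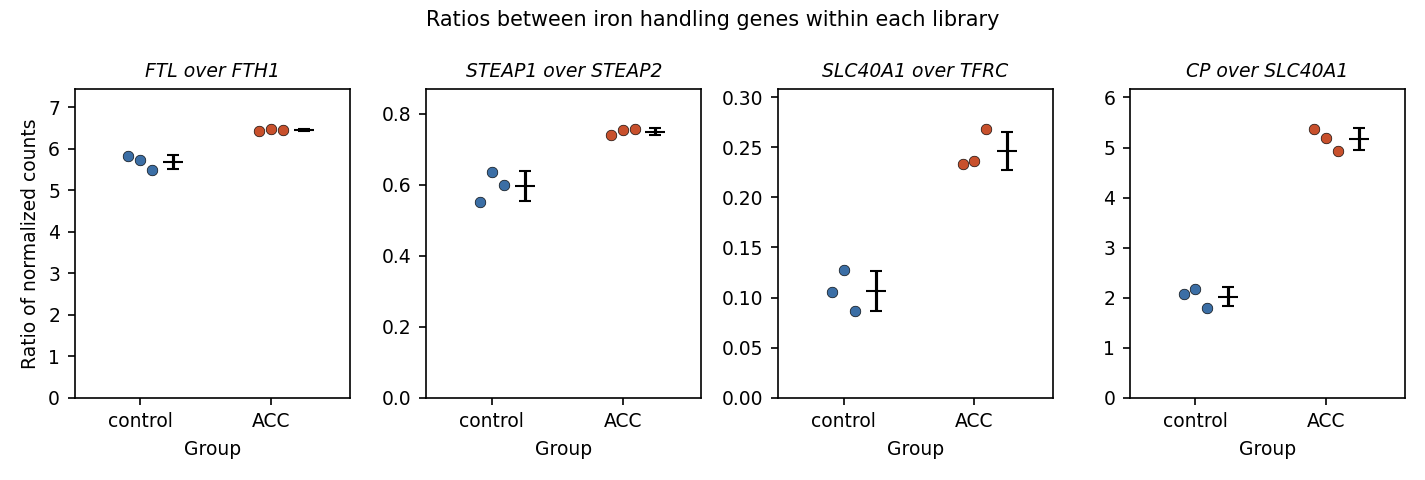
Ratios of normalized counts between pairs of genes in each library (points), with the group mean and SD beside them, for 3 control and 3 ACC libraries. In each of the 4 panels the ratios with ACC are above all the control ratios, for example 6.45 ± 0.0181 against 5.68 ± 0.176 for FTL over FTH1. The ratios of TF over CP, not shown, overlapped. These genes were chosen with their fold changes known, so nothing is read from the separation.

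Both ferritin genes have processed pseudogenes, copies of the mRNA elsewhere in the genome, and reads that fit a gene and a copy equally can be lost or misplaced in counting. The table held 12 genes named as FTH1 pseudogenes and 3 named as FTL pseudogenes. Their summed counts came to 1.04% ± 0.0258 of the FTH1 counts with ACC and 1.01% ± 0.0568 in the controls, and to 0.593% ± 0.0308 and 0.582% ± 0.0305 of the FTL counts (SD, n = 3 each). These shares overlapped between the groups.
FTLP3, the most abundant, had 1843 ± 85.9 normalized counts with ACC and 1184 ± 88.1 in the controls, a log2 fold change of 0.64 beside 0.61 for FTL (SD, n = 3 each, limma adjusted p = 1.89e-08). FTH1P8 had 356 ± 13.6 and 262 ± 7.57, a log2 fold change of 0.44 beside 0.43 for FTH1 (SD, n = 3 each, limma adjusted p = 5.08e-05). Whether the reads counted in these copies came from them or from the ferritin mRNAs was not tested. The levels of FTH1 and FTL are uncertain to the extent that such reads were dropped. BEST1, which shares 1267 exon bases with FTH1 on the opposite strand, had only 17.6 normalized counts on average with ACC and 12.2 in the controls.

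**Figure D4:**
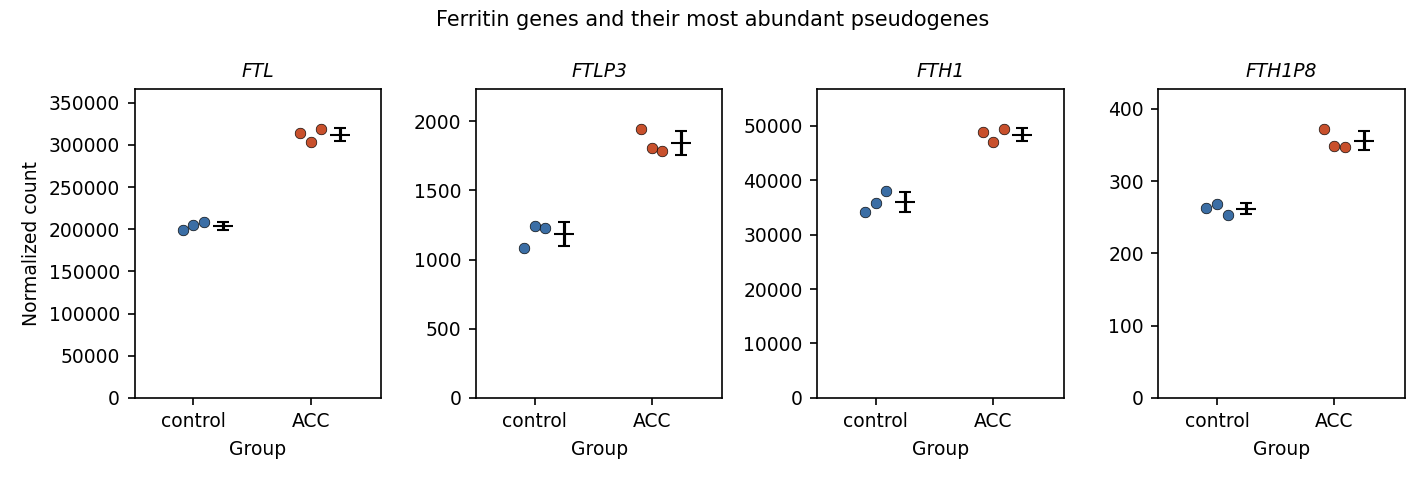
Normalized counts of FTL, FTH1 and the most abundant pseudogene of each (FTLP3 and FTH1P8) in 3 control and 3 ACC libraries, with the group mean and SD beside the points and axes that start at 0. Each pseudogene is higher with ACC than in the controls, with FTLP3 at 1843 ± 85.9 against 1184 ± 88.1 and FTH1P8 at 356 ± 13.6 against 262 ± 7.57.

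Levels of different genes were compared per kilobase of merged exons. FTL was the most abundant protein-coding gene of all 14437 ranked in both groups, with 358380 normalized counts per kb with ACC and 234556 in the controls. FTH1 stood at place 20 with ACC and 25 in the controls. In the controls the order of the others was STEAP3, TFRC, STEAP1, CP, SLC11A2, SLC40A1, STEAP2 and TF, where CP and SLC11A2, at 131 and 127 normalized counts per kb, overlapped between libraries. With ACC the order was CP, STEAP1, STEAP3, SLC40A1, TFRC, STEAP2, SLC11A2 and TF. There CP and STEAP1 overlapped (811 and 795 normalized counts per kb), as did SLC40A1 and TFRC (264 and 260.4). CP moved from place 5888 to 1063 and STEAP1 from 4248 to 1093 among all ranked genes. The order of the middle members depends on the length used. Per kb of the MANE Select transcript, a length added after the data were seen, TFRC took place 3 in the controls (857) and place 5 with ACC (903), since its merged exons span 17376 bases and this transcript 5012.

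Within the groups, the same libraries were often the highest or the lowest among the members. How often they were so over all genes was not counted, so nothing particular to the members is read from this. Among the ACC cultures, replicate 3 was the highest for 8 of the 10 members and replicate 2 the lowest for 7. Replicate 3 was the highest ACC library for each of TF, CP, STEAP1, STEAP2 and SLC40A1. Among the controls, replicate 3 was the lowest for these same 5 members, while it was the highest control for FTH1, FTL and TFRC. ACC replicate 2, the lowest ACC library for TF, TFRC, CP, FTH1, FTL, STEAP2 and SLC40A1, also had the highest mitochondrial share, 5.70% of the reads, and the part of this in its values was not tested.

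Other genes of iron metabolism were taken from a wider set. A list of 90 further genes was drawn up from general knowledge, with earlier results of these data known, and 80 of them were tested. Of these 80 genes, 1 was called higher and 0 lower by limma, beside 2.77% and 2.24% of all genes. At the adjusted p of 0.05 alone, 19 were higher and 17 lower, beside 21.3% and 21.9% of all genes, and 44 did not pass. The median log2 fold change of the 80 genes was 0.03, beside 0.00 over all genes tested and 0.95 over the 10 members. At an unadjusted p under 0.05, 21 were higher and 18 lower, and edgeR and DESeq2 each called 1 higher and 0 lower at the full thresholds.
The called gene was LCN2, which encodes lipocalin 2, a secreted protein that binds iron-carrying siderophores. LCN2 had 153, 141 and 164 normalized counts with ACC and 17.4, 22.2 and 12.4 in the controls, or 3.10 ± 0.193 (standard error) on the log2 scale, with a limma adjusted p of 3.11e-10. SLC22A17, which encodes a receptor proposed for lipocalin 2, fell from 583 ± 56.2 to 393 ± 13.2 (SD, n = 3 each), or -0.57 on the log2 scale, with a limma adjusted p of 2.87e-06, and was named after its values were seen. The zinc and iron importer SLC39A14 had a log2 ratio of 0.10 at a limma adjusted p of 0.0387.

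The iron regulatory proteins and the turnover of ferritin were represented by 9 tested genes. Of these, 1 was higher and 5 lower at the adjusted p alone, beside 21.3% and 21.9% of all genes. The median log2 fold change of the 9 was -0.10. ACO1, which encodes iron regulatory protein 1, fell from 1912 ± 52.6 normalized counts to 1570.5 ± 53.1 (SD, n = 3 each), or -0.28 on the log2 scale, with a limma adjusted p of 2.67e-05. IREB2, which encodes iron regulatory protein 2, had 3187 ± 139.9 in the controls and 3079 ± 67.03 with ACC (SD, n = 3 each, adjusted p = 0.357 from limma). FBXL5, the iron-sensing ubiquitin ligase subunit for both proteins, fell with a log2 ratio of -0.20 at a limma adjusted p of 0.00650 and was named after its values were seen. NCOA4, the receptor that carries ferritin to the lysosome, fell with a log2 ratio of -0.10 at a limma adjusted p of 0.0440. PCBP2, an iron chaperone and RNA-binding protein, rose with a log2 ratio of 0.20 at a limma adjusted p of 5.13e-05.

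Of 7 tested genes of the hepcidin axis, 4 were higher and 1 lower at the adjusted p alone, beside 21.3% and 21.9% of all genes. The median of the 7 was 0.34 on the log2 scale, and none passed the fold threshold. HAMP, the gene of hepcidin itself, was looked for by name and had no row in the deposited table, so it was not analysed. HFE, which binds the transferrin receptor, rose from 661 ± 37.7 normalized counts to 1095 ± 34.99 (SD, n = 3 each), or 0.73 on the log2 scale, with a limma adjusted p of 3.07e-09. TFR2, the second transferrin receptor, rose from 58.2 ± 4.68 to 84.4 ± 3.93 (SD, n = 3 each), or 0.53 on the log2 scale, with a limma adjusted p of 0.00444. BMP2, a ligand that induces hepcidin, fell from 35.7 ± 4.88 to 19.9 ± 4.12 (SD, n = 3 each), or -0.82 on the log2 scale, with a limma adjusted p of 0.00773. HFE, TFR2 and BMP2 were named after their values were seen. NEO1, a co-receptor of the pathway, rose with a log2 ratio of 0.22 at a limma adjusted p of 8.71e-05.

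Among other reductases and ferroxidases, 1 of 4 tested genes was higher and 1 lower at the adjusted p alone, beside 21.3% and 21.9% of all genes. CYBRD1, a ferric reductase of the gut, fell with a log2 ratio of -0.12 at a limma adjusted p of 0.0234. HEPH, which encodes hephaestin, the membrane ferroxidase related to ceruloplasmin, had 0 reads in all 6 libraries. The copper genes that supply ceruloplasmin had 1 of 6 higher and 2 lower. The copper importer SLC31A1 had a log2 ratio of 0.04 at a limma adjusted p of 0.576. ATP7A and ATP7B, the copper pumps of the secretory pathway, had log2 ratios of 0.44 and -0.20 at limma adjusted p values of 2.91e-06 and 0.0443, and were named after their values were seen.

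Most heme and iron-sulfur cluster genes did not pass the test. Of 12 heme genes, 2 were higher and 2 lower at the adjusted p alone, beside 21.3% and 21.9% of all genes, and 8 did not pass. BLVRB, which encodes biliverdin reductase B, rose from 3583 ± 17.9 normalized counts to 6636 ± 131.9 (SD, n = 3 each), or 0.89 on the log2 scale, with a limma adjusted p of 3.35e-13. HMOX1, the inducible heme oxygenase that frees iron from heme, had 3392 ± 107 in the controls and 3542 ± 218 with ACC (SD, n = 3 each), or 0.06 on the log2 scale, with a limma adjusted p of 0.292. Of 25 iron-sulfur cluster genes, 4 were higher and 3 lower, and 18 did not pass. FDX1, a mitochondrial ferredoxin, fell from 718 ± 46.1 to 419.9 ± 17.2 (SD, n = 3 each), or -0.77 on the log2 scale, with a limma adjusted p of 1.07e-08 and was named after its values were seen. HSPA9, the mitochondrial chaperone of cluster transfer, rose with a log2 ratio of 0.12 at a limma adjusted p of 0.0352.

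**Figure D5:**
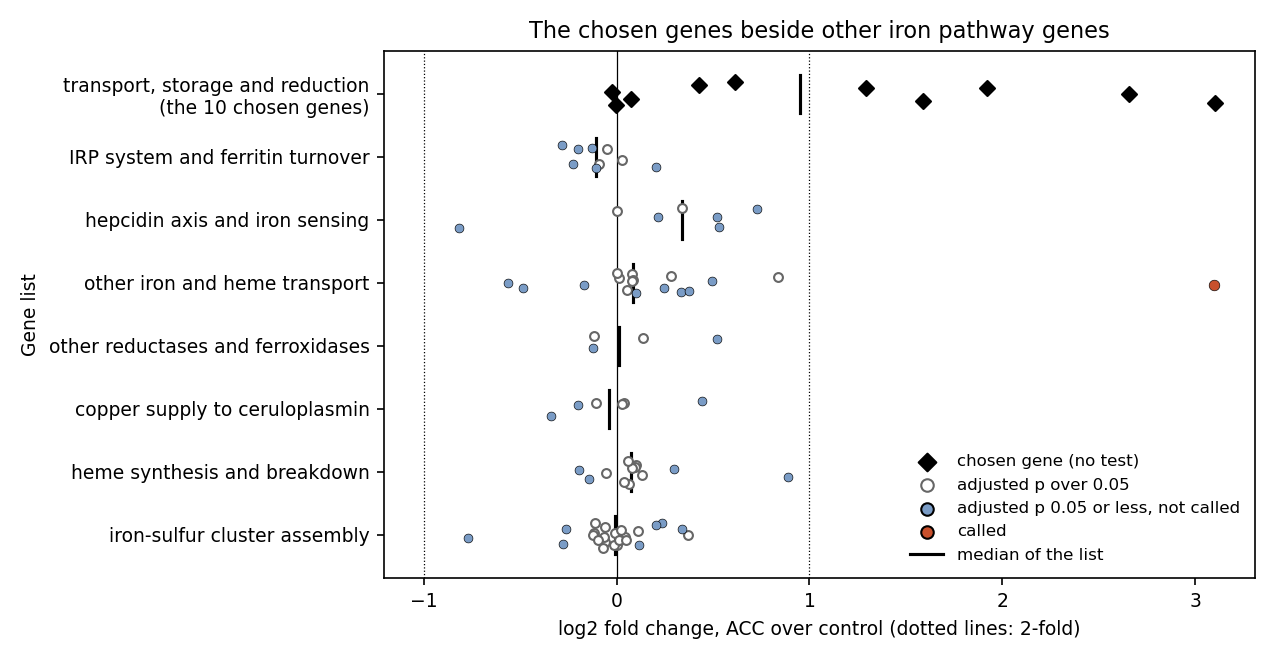
Log2 fold change (ACC over control) of the 10 chosen genes (black diamonds, no test) and of 7 lists of other iron pathway genes (circles, filled where the adjusted p from limma was 0.05 or less), with the median of each list as a bar. LCN2 at 3.10 is the only other iron gene beyond the dotted 2-fold lines.

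The sequence features shared by some members were also counted over all genes. Outside the members, 151 tested genes held the stem-loop core, of which 4 were called higher (2.65%) and 1 lower (0.662%) by limma, with a median log2 fold change of -0.02. The motif ACGTG, the core of the hypoxia response element, was searched on both strands of RefSeq promoter windows on GRCh38.p14, from 250 bases before to 50 after a start site. It was present in 21.4% of 35116 windows. Of 13 windows for 8 of the members, 3 held it, and these belong to FTL, TFRC and TF. The TF window that held it (chr3:133661748-133662047) lies upstream of the gene as placed above, and the TF window at that gene start (chr3:133746143-133746442) did not hold it.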

How the data were processed

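RNA-seq libraries of the polyA fraction were made from 3 ACC and 3 control cultures of A549, grouped by title. Per the labels, the authors used Cutadapt for trimming, STAR 2.4.2a for alignment to GRCh38 and HTSeq for counting. What the authors deposited is a signal for each gene and library, the read count after division by a DESeq2 size factor, rounded to 2 decimals. Their columns of log2 fold changes and p-values were not used. Whole reads were recovered from the steps of each library (100% of positive values lay within 0.1 read of a whole number). limma 3.58.1 in R 4.3.3, with a mean-variance trend, was fitted to log2(normalized count + 1), with Benjamini-Hochberg adjustment. This was done for the 19318 genes with values summing to at least 10. The value added before the log matters for low genes. For TF the log2 fold change was 3.15, 3.10 and 2.80 with 0.5, 1 and 5 added, and 3.05 by DESeq2 and 3.04 by edgeR. The fit was also run on simulated data that took their spread from these same libraries. Those data took the cultures as independent, so nothing about the real cultures is read from them. edgeR 4.0.16 and DESeq2 1.42.0 on the recovered reads, other scalings, pseudocounts, filters, a replicate block, a 1.5-fold threshold and leaving out each library were alternatives. Coordinates, exon lengths, exon overlaps and UTRs are from GENCODE 44 (GRCh38), and each printed core was checked against the genome. The authors counted reads on an earlier Ensembl annotation, in which exons and overlaps can differ. Members, lists and rules were chosen with earlier results of these data known. Other iron genes were named where called, where most abundant among those not called in a list, or by a short fixed list that includes ACO1, IREB2, NCOA4, HMOX1, STEAP4, HEPH and LCN2. Replicates differed by more than sampling noise (mean chi-square per gene 2.60 to 5.24).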

Additional observations from a re-analysis of the deposited data

How the results depend on the processing

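The log2 fold changes of the 10 members were computed under 15 alternatives, and all 150 values moved by less than 1 SD of the replicates. With 3 libraries per group, leaving out 1 cannot move the value that far. The other filters and the replicate block leave it unchanged by design. For these settings the outcome was fixed in advance, and nothing is read from it. The sign turned only for SLC11A2, a gene past no threshold, from -0.0033 to between 0.0039 and 0.0141 in 4 of the alternatives (edgeR, and without ACC replicate 2, ACC replicate 3 or control replicate 2). Over all genes, the count called higher ranged from 491 to 568 and the count called lower from 415 to 451 when 1 library was left out. Other iron genes stayed at 1 higher and 0 lower there. With a 1.5-fold threshold, 1194 genes were higher and 965 lower, and 3 other iron genes were higher (LCN2, HFE and BLVRB) and 2 lower (BMP2 and FDX1). On the recovered reads, edgeR called 551 genes higher and 430 lower. The replicate numbers did not pair the libraries, since the deviations of same-numbered libraries correlated at -0.12, 0.08 and -0.07, and with a replicate block the counts were 536 higher and 432 lower, with 1 other iron gene higher and 0 lower. TF in the controls rests on 8 to 26 reads per library, which limits the precision of its fold change.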
